A study of Rattus norvegicus with 15 samples.

Results

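Livers from 6 male Sprague-Dawley rats aged 450 days were compared. The mothers of 3 of these rats had their calories cut by 50% in late pregnancy, from embryonic day 11 to embryonic day 21 (intrauterine calorie restriction, IUCR), and the mothers of the 3 control rats ate normally in pregnancy and while nursing. The arrays were chosen by age and maternal diet as labelled, and are 6 of the 15 arrays in the series, with 1 array per liver and replicates lettered A, B and C in each group. A further 3 livers of day 450 came from offspring whose mothers were restricted in that window and again from postnatal day 1 to day 21 (IPCR), and serve as a restricted group for comparison. The last 6 arrays, control and IPCR at day 21, are not compared, but add to the estimate of the spread between arrays. The mean level of each gene, the choice among its probe sets and the quantile normalization also use all 15 arrays. Replicates are separate littermates per the series' design text. How many litters they came from and at what hour the livers were taken is not stated in the labels, so the p-values below speak for the spread between these livers and not for other litters. The comparison asks what a restriction limited to the womb leaves in the adult liver more than a year later, in a series that concerns hepatic circadian cycling.

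The liver clock is a feedback loop. BMAL1 pairs with CLOCK or NPAS2 and, through E-boxes, drives the Per and Cry genes, which repress it, and also Nr1d1, Nr1d2, Dbp and Tef. The nuclear receptors NR1D1 and NR1D2 repress Bmal1, Npas2, Clock and Nfil3 through response elements called ROREs, while DBP and TEF act on D-boxes. The 2 gene sets therefore peak at opposite times of day. Poor nutrition in the womb is widely studied as a setting in which liver metabolism, growth hormone action, glucocorticoid action and the daily cycle may be set for later life.

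These promoter sequences show the 3 elements in clock genes that are measured here. With all 6 arrays, the 2 arms of the clock had the highest and the lowest median difference from control among the pathway lists. Without IUCR B the highest median was that of male-biased liver genes (0.48), and the BMAL1 arm was at 0.37. They are from RefSeq on assembly GRCr8, are written 5′ to 3′ on the strand of the gene, and hold the element in capitals. The Bmal1 window (chr1:176766269-176766327, plus strand) holds a RORE at bases -19 to -10 from the start of transcription, the Per2 window (chr9:99497138-99497225, minus strand) a D-box at -192 to -185, the Nr1d1 window (chr10:84229600-84229685, minus strand) an E-box at -191 to -186, and the Tef window (chr7:115206589-115206674, plus strand) an E-box at -198 to -193.
Bmal1: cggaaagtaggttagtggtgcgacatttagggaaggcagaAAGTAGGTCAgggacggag
Per2: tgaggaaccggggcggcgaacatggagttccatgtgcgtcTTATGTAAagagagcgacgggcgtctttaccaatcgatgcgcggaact
Nr1d1: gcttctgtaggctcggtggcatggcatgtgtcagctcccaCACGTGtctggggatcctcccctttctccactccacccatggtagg
Tef: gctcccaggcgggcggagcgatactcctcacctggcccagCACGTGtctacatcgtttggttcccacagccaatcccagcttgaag
The search covered 250 bases before to 50 after each start, on both strands, and 13 of the 15 clock genes had an entry. Before the start, the E-box was in 2 of those 13, the RORE in 1 and the D-box in 1, which are the windows shown. The others of the 13 had no match there. The shares that follow also count matches after the start. The E-box CACGTG was in 6.42% of 33469 promoters, the RORE in 0.481% and the D-box (TTATGTAA or TTACGTAA) in 1.01%. A match describes the sequence and says nothing of binding in these livers.

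Values are log2 intensities on Affymetrix Rat Gene arrays after normalization across arrays by the authors, so a difference of 1 is a doubling of intensity. A total of 14506 named genes were compared. The array medians lay between 7.12 and 7.21 and the lower quartiles between 6.03 and 6.14, and values near or below those quartiles may be background. Across genes, the 6 pairs of arrays within a group correlated at r of 0.990 to 0.993 and the 9 pairs between control and IUCR at 0.989 to 0.993. The groups mixed on the first principal component, which held 33.5% of the variance, with controls at -17.43, 0.60 and 4.40 and IUCR arrays at -9.70, 9.55 and 12.59. All 14 hepatocyte markers, among them albumin and the asialoglycoprotein receptor gene Asgr1, were measured at 11.09 or above on each of the 6 arrays, at or above the 96.5th percentile of genes.

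A single array stands apart. In IUCR B, 12 genes lay more than 1 log2 unit beyond the other 5 arrays, against 4 in IUCR A, 4 in IUCR C and 1 to 3 in each control. Of the 12, 7 are on the lists of sex-biased liver genes, the set whose male or female pattern is set by the rhythm of growth hormone release. As list means, male-biased genes were low in it and female-biased genes high, in a liver labelled male like the rest. Not every member followed. Hao2, counted as female-biased, was lowest in it at 9.41, and the male-biased Bcl6 lay within the range of the controls. Values without it are given beside many of the results that it moved, but not beside all.

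No gene passed the test for a difference between IUCR and control. Of 14506 genes, 0 (0%) had a limma p below 0.05 after Benjamini-Hochberg adjustment, and the smallest adjusted p was 0.311. At an unadjusted p below 0.05, 509 genes (3.51%) were higher in IUCR and 543 (3.74%) lower. The 3 IUCR values lay above all 3 control values for 824 genes (5.68%) and below them for 797 (5.49%). The median standard error (SE) of a difference was 0.0960 and the median 95% interval reached 0.204 to either side, so for a typical gene a difference under that size could not be told from 0. Without IUCR B, the array that stands apart, 808 genes were higher at an unadjusted p below 0.05, and without IUCR C 306. The values below are therefore descriptions of the livers sampled, and a p that misses the threshold does not show that the groups were alike.

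The direction of the small differences went with the level of signal. Among the 7253 genes above the median level of 7.53, 418 (5.76%) were higher at an unadjusted p below 0.05 and 109 (1.5%) lower, and 4579 (63.1%) had a difference above 0. Values without overlap were higher for 665 of them (9.17%) and lower for 203 (2.8%). The lean to the higher side grew with level. In the brightest decile (mean level 9.8 or above), 74.983% were above 0 and 9.79% higher at an unadjusted p below 0.05. The median difference there was 0.073. For lists with a mean level in that decile, the shares of all brighter genes understate the background. Among the 7253 dimmer genes the sides were turned, with 91 higher and 434 lower. The spread of each array moved with this. The interquartile range was 2.31, 2.27 and 2.19 on the control arrays and 2.33, 2.27 and 2.38 on the IUCR arrays, widest in IUCR C and narrowest in control C. After quantile normalization, which gives every array the same spread, the median difference of the brighter genes was 0.00, against 0.04 as deposited, and the excess on the higher side was gone: 289 brighter genes were higher and 263 lower at an unadjusted p below 0.05, and 435 and 428 did not overlap.

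**Figure D1:**
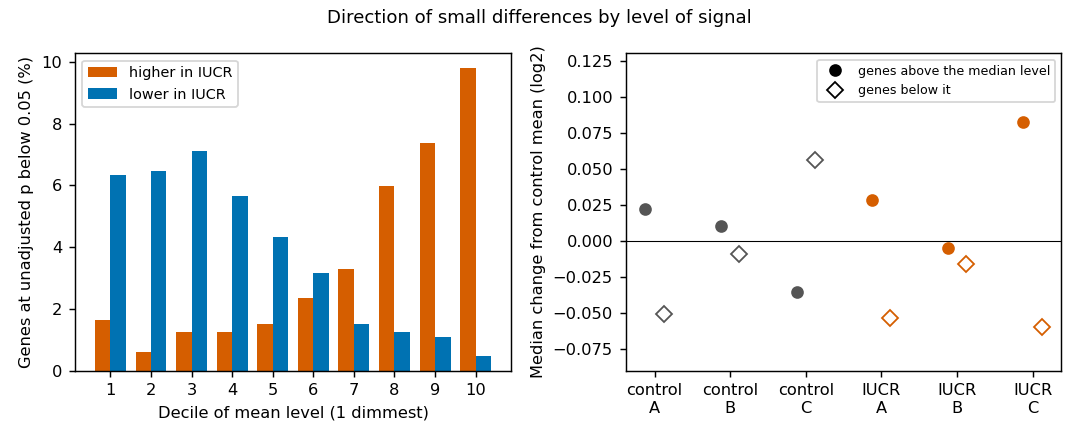
Left, the share of genes at an unadjusted limma p below 0.05 that were higher (orange) or lower (blue) in IUCR, by decile of mean level over 15 arrays. Higher genes made up 9.79% of the brightest decile and 1.65% of the dimmest, and lower genes 0.482% and 6.34%. Right, the median change of brighter and dimmer genes on each array from the mean of the 3 controls, with the 2 sets furthest apart in IUCR C (0.08 and -0.06).

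The clock genes stood apart from control in the pattern of the loop: genes of the BMAL1 arm were higher and those of the PER and DBP arm lower in IUCR. In the BMAL1 arm, 4 of 5 measured genes were higher and 1 lower at an unadjusted p below 0.05, with a median difference of 0.30. In the PER and DBP arm, 10 of 12 genes were measured, 9 had a difference below 0, 4 were lower and 0 higher at an unadjusted p below 0.05, and the median was -0.37. Over all genes those shares were 3.51% and 3.74% and the median difference was -0.01. None of the 15 passed after adjustment.

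Bmal1, the activator that drives the loop, was at 6.31, 6.53 and 6.62 in controls A, B and C and at 7.07, 7.45 and 7.99 in IUCR A, B and C. Each IUCR array lay above each control. The difference was 1.02 (SE 0.23, 95% interval 0.52 to 1.51), a 2.02-fold ratio, with a limma adjusted p of 0.458, and it was 1.04 without IUCR B. Bmal1 lies below the median level of all genes. Its lowest value, in control A, was at the 22.3rd percentile of genes, so its control values may be near background. Npas2, a partner of BMAL1, was at 7.21, 7.72 and 7.70 in controls and at 7.58, 8.39 and 8.71 in IUCR, so IUCR A lay among the controls (difference 0.68, SE 0.22, adjusted p = 0.595). Clock, the other partner, was nearly level across controls at 8.88, 8.88 and 8.87 and stood at 9.09, 8.97 and 9.40 in IUCR, with no overlap (0.28, SE 0.10). Nfil3, a repressor of D-box genes, overlapped between the groups (0.30, SE 0.13). Cry1, a late repressor of BMAL1 and CLOCK that also carries ROREs, went the other way from the rest of its arm. It was at 7.50, 7.27 and 7.23 in controls and at 7.08, 7.12 and 6.92 in IUCR, with no overlap (-0.29, SE 0.11, adjusted p = 0.616).

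In the opposite arm, Dbp, a clock output that swings widely over the day, was at 11.61, 11.49 and 11.32 in controls and at 11.21, 10.90 and 10.36 in IUCR. All 3 IUCR arrays were below all 3 controls, IUCR C by the most (-0.65, SE 0.21, 95% interval -1.09 to -0.21, adjusted p = 0.595). Wee1, a kinase that holds cells before mitosis and is an E-box target of the clock, was at 7.66, 7.11 and 7.02 in controls and at 6.61, 6.50 and 6.40 in IUCR. The groups did not overlap (-0.76, SE 0.18, adjusted p = 0.458). Wee1 lies below the median level of all genes, where lower genes were common. Its lowest value, in IUCR C, was at the 24.7th percentile of genes, so its IUCR values may be near background. The period genes, which feed back on BMAL1 and CLOCK, lay on the same side. Per1 was at 7.77, 7.84 and 7.84 against 7.33, 7.37 and 7.67 in IUCR (-0.36, SE 0.14), Per2 differed by -0.37 (SE 0.21) and Per3 by -0.47 (SE 0.23), and none of the 3 overlapped. Per3 rests on small gaps, since IUCR A at 8.95 lay just under controls B and C at 8.96. The intervals of Per2 and Per3 include 0.

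Usp2, a deubiquitinating enzyme under clock control, differed by -0.42 (SE 0.20), Cry2 by -0.24 (SE 0.12) and Tef by -0.16 (SE 0.12), each with overlapping groups. Nr1d1 and Nr1d2, the receptor genes that repress Bmal1, also overlapped. Nr1d1 was at 10.62, 10.82 and 10.41 in controls and at 10.82, 10.66 and 10.93 in IUCR (0.18, SE 0.15), and Nr1d2 differed by -0.10 (SE 0.09). Nr1d1 was thus the 1 member of its arm above 0. Among the genes that modify the clock, Bhlhe40, Bhlhe41 and Noct overlapped between the groups, and 0 of the 10 measured passed even an unadjusted p below 0.05. Over all genes 3.51% were higher and 3.74% lower at that p. The targets of DBP and its relatives did not follow Dbp as a set: of 8 measured, 5 were above 0 and 3 below (median 0.03, -0.03 after quantile normalization and 0.13 without IUCR B). Alas1, the first enzyme of heme synthesis and a member of that set, was at 11.311, 11.044 and 10.996 in controls and at 10.75, 10.48 and 10.77 in IUCR, with no overlap (-0.45, SE 0.15, adjusted p = 0.597).

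The size of the clock pattern differed between the IUCR livers. Averaged over the BMAL1 arm, the change from the control mean was 0.15 in IUCR A, 0.45 in IUCR B and 0.59 in IUCR C, where the controls lay between -0.08 and 0.09. Averaged over the PER and DBP arm it was -0.18, -0.39 and -0.44, with controls between -0.13 and 0.12. IUCR A was the nearest to the controls in both arms and IUCR C the furthest. Without IUCR B the medians of the arms were 0.37 and -0.30. After quantile normalization they were 0.24 and -0.37. An effect of the hour of collection cannot be told apart from one of the diet, as the hour is not in the labels.

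**Figure D2:**
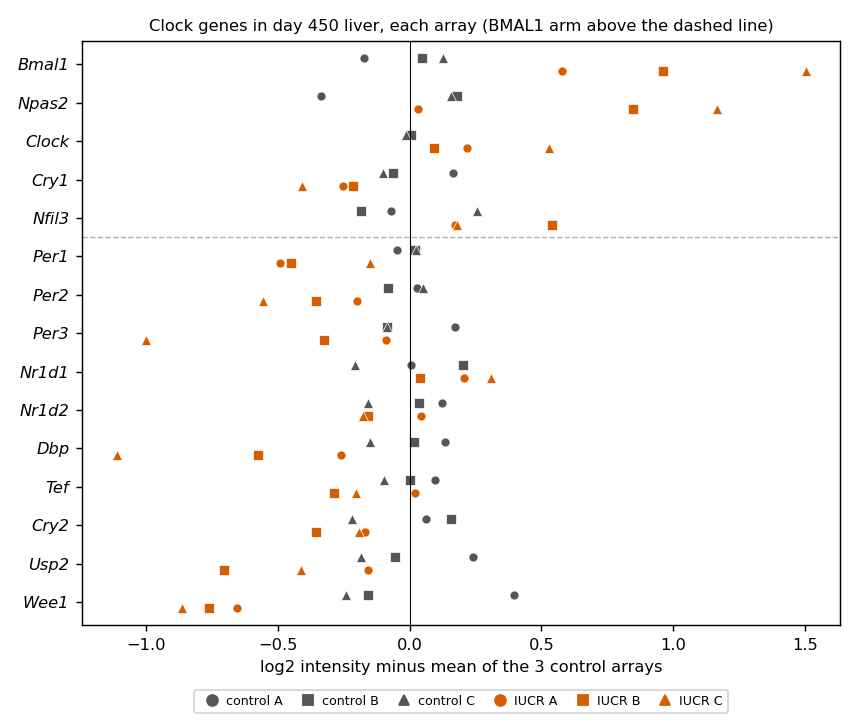
Change of each clock gene on each array, as log2 intensity minus the mean of the 3 control arrays (grey, control; orange, IUCR; circle, square and triangle for replicates A, B and C). Bmal1, Npas2 and Clock lie to the right in IUCR, Bmal1 by 1.02 on average, and Dbp and Wee1 to the left, by 0.65 and 0.76.

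Zbtb16, a zinc finger transcription factor known as PLZF and induced by glucocorticoids in many tissues, had the largest ratio among the genes with the smallest p. It was at 8.37, 8.01 and 8.11 in controls and at 9.06, 9.21 and 10.73 in IUCR. All 3 IUCR livers were above the controls, and IUCR C stood well above the other two. The difference was 1.50 (SE 0.34, 95% interval 0.79 to 2.22), 2.84-fold, with a limma adjusted p of 0.458, and it ranged from 0.97 to 1.81 over the alternatives run.

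The other genes of glucocorticoid action did not share its size. Of 14 measured, Zbtb16 among them, 2 were higher (Zbtb16 and Nr3c1) and 1 lower (Per1) at an unadjusted p below 0.05. The median difference of the 14 was 0.13 (0.22 without IUCR B). All 14 lie above the median level, where 5.76% of genes were higher and 1.5% lower at that p, with a median of 0.04. Nr3c1, the glucocorticoid receptor, was at 10.22, 9.95 and 10.22 in controls and at 10.46, 10.32 and 10.36 in IUCR, with no overlap (0.25, SE 0.10, adjusted p = 0.645). Klf9, another target of the receptor, was at 8.47, 8.54 and 8.21 against 8.68, 8.59 and 8.88, also without overlap (0.31, SE 0.17). Fkbp5 (0.27, SE 0.21), Tsc22d3 (0.16, SE 0.14), Dusp1 (0.43, SE 0.34) and the liver enzyme Tat (-0.23, SE 0.22) overlapped between groups, and Per1, which the receptor also drives, was the lower member. Hsd11b1, which makes active hormone inside the cell, differed by 0.09 (SE 0.12). As an average over the list, which includes Zbtb16, IUCR C stood at 0.54 from the control mean, and IUCR A and B at 0.02 and 0.01. The high value of Zbtb16 in IUCR C is part of that 0.54. Controls A, B and C stood at 0.12, 0.05 and -0.17, so IUCR A and B lay among them.

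Of the genes above the median level, the smallest p belonged to Coq8a, an atypical kinase needed to make coenzyme Q. It was at 10.61, 11.09 and 10.76 in controls and at 11.57, 11.23 and 11.55 in IUCR. The groups did not overlap, but control B and IUCR B differed by little (0.63, SE 0.11, 95% interval 0.39 to 0.88, adjusted p = 0.320). Without control B the difference was 0.77 with an adjusted p of 0.0252, within a range of 0.0252 to 0.825 over the alternatives run, so whether it passed turned on 1 array. The other 11 measured genes of coenzyme Q synthesis had small differences, with a median of 0.04 for the list, and Coq8b, the paralogue of Coq8a, was at 0.13 (SE 0.08).

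Other genes higher with small p values were of varied function. Pnkd, a hydrolase-like protein, was at 9.30, 9.74 and 9.52 in controls and at 10.03, 10.10 and 10.29 in IUCR (0.62, SE 0.12, adjusted p = 0.320). Pign, an enzyme of glycosylphosphatidylinositol anchors, differed by 0.40 (SE 0.09), Zfp36l1, which speeds the decay of messenger RNA, by 0.39 (SE 0.09), and Cmtm6, a membrane protein that stabilises PD-L1, by 0.42 (SE 0.10). Gk, the glycerol kinase that brings glycerol into glucose and triglyceride synthesis, was at 11.11, 11.16 and 11.06 in controls and at 11.75, 11.39 and 11.53 in IUCR (0.45, SE 0.10, adjusted p = 0.458). Slc45a3 differed by 0.52 (SE 0.10) and Mk1 by 0.40 (SE 0.10). None of these 7 overlapped between groups.

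Among the larger differences without overlap, Mst1, a hepatocyte-made ligand also called macrophage stimulating protein, was at 8.68, 8.58 and 10.54 in controls and at 10.69, 10.70 and 10.97 in IUCR. Control C lay beside the IUCR arrays and 2 controls lay far below (1.52, SE 0.47, 95% interval 0.51 to 2.52, adjusted p = 0.595). Without control C its difference was 2.15. Fmo1, a flavin monooxygenase that oxidises drugs, differed by 0.95 (SE 0.31), Chka, the choline kinase that starts phosphatidylcholine synthesis, by 0.61 (SE 0.18) and Fam13a by 0.63 (SE 0.18). Cth, which makes cysteine and hydrogen sulfide, was at 12.02, 12.83 and 12.82 in controls and at 12.95, 13.09 and 13.33 in IUCR (0.57, SE 0.19). Control A alone made much of that gap.

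The lowest p over all genes, 2.1e-05 before adjustment, was that of Ptprt, a receptor tyrosine phosphatase. It was at 7.38, 6.84 and 7.44 in controls and at 6.46, 6.48 and 6.57 in IUCR, with control B nearest to the IUCR arrays (-0.72, SE 0.12, 95% interval -0.97 to -0.46, adjusted p = 0.311). Without control B the difference was -0.90 and the adjusted p 0.000272, the lowest in a range that reached 0.825 over the alternatives run. It lies below the median level of all genes, where lower genes were common.

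The brighter genes with the smallest p or the largest differences on the lower side were of varied function. Abcg2, an efflux pump for drugs and urate, was at 8.10, 7.89 and 7.56 in controls and at 7.23, 7.05 and 6.42 in IUCR (-0.95, SE 0.27, adjusted p = 0.534). Ltc4s, the leukotriene C4 synthase, was at 8.83, 9.07 and 9.32 against 8.11, 7.63 and 8.76 (-0.91, SE 0.22, adjusted p = 0.503). Without IUCR B its difference was -0.64. Slc20a1, a phosphate transporter, differed by -0.62 (SE 0.17), Limk2, a kinase of the actin regulator cofilin, by -0.38 (SE 0.09), Hoxd1, a homeobox factor, by -0.35 (SE 0.08) and Tmem9, a lysosomal membrane protein, by -0.39 (SE 0.09). Evc, a ciliary protein of Hedgehog signalling, was at 8.07, 8.10 and 8.86 in controls and at 7.72, 7.81 and 7.61 in IUCR (-0.63, SE 0.19). None of these 7 overlapped, and for Evc control C stood above the other controls. Rcn1, Mettl2, Shtn1, Traf3ip1 and Nrm, also among the smallest p, differed by -0.23 to -0.31.

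Only 8 genes differed by more than 2-fold on average, and the spread of several of them was wide. Besides Bmal1, Zbtb16 and Mst1, the higher ones were Cyp3a9, Stac3 and Ifit1, and the lower ones Abhd3 and Akr1c2. Ifit1 was over 2-fold only through IUCR B: its difference was 1.42 with that array and 0.35 without it. Stac3 and Ifit1 overlapped between groups, as did Akr1c2, where control C at 10.58 made the difference and the other controls were at 7.45 and 7.48. Abhd3, a phospholipase, was at 9.13, 7.91 and 7.31 in controls and at 6.96, 7.15 and 7.01 in IUCR (-1.08, SE 0.34). The spread there lay in the controls. Stac3, Ifit1, Abhd3 and Akr1c2 were singled out after their values were seen.

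**Figure D3:**
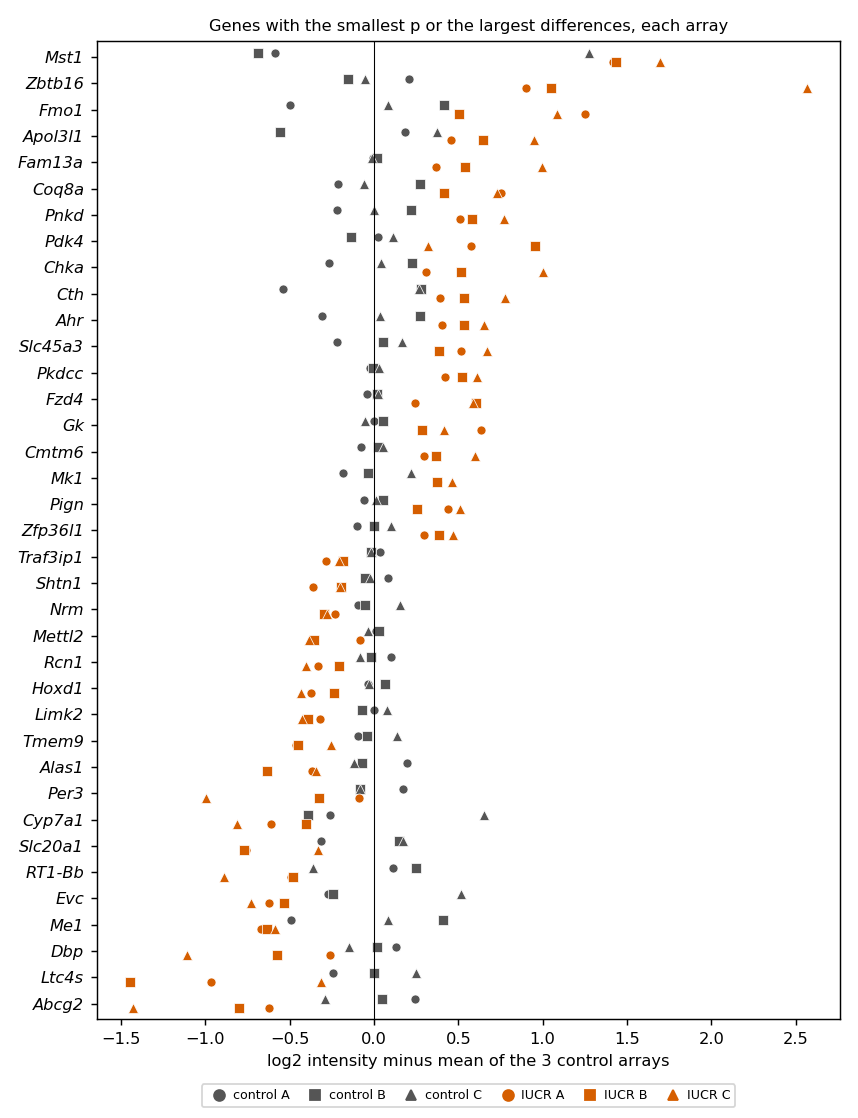
Change of each gene on each array from the mean of the 3 controls, in log2 intensity, for genes above the median level with the smallest p or the largest differences without overlap. Zbtb16 in IUCR C is furthest to the right, and control C of Mst1 lies beside the IUCR arrays; these genes were picked by their differences.

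Genes of drug and toxin metabolism lay mostly above control. Of 22 measured, 18 were above 0, 6 were higher and 0 lower at an unadjusted p below 0.05, and 6 were higher without overlap, with a median of 0.16. Among all genes above the median level, where 20 of the 22 lie, 63.1% were above 0, 5.76% were higher at that p, 9.17% were higher without overlap, and the median was 0.04. The list's mean level was 10.365 to 10.988 over the 6 arrays. In the brightest decile (9.8 or above) 74.983% were above 0, 9.79% were higher at that p, and the median was 0.073. Ahr, the receptor for dioxin-like compounds, was at 7.82, 8.40 and 8.16 in controls and at 8.53, 8.66 and 8.78 in IUCR (0.53, SE 0.12, adjusted p = 0.458). Its classic target Cyp1a1 was at -0.28, and Cyp1a2, another, at 0.32. Cyp3a9 was at 7.27, 6.86 and 5.90 against 7.67, 7.87 and 7.57 (1.03, SE 0.34, adjusted p = 0.597). Cyp2b2, a target of the receptor CAR, differed by 0.91 (SE 0.33), with control B at 8.87 between the IUCR values of 8.73 and 9.04, and Nr1i3, the gene of CAR, by 0.77 (SE 0.43). Cyp2e1, which oxidises ethanol, differed by 0.34 (SE 0.15), Cyp2d1 by 0.24 (SE 0.09) and the glutathione transferase Gstm2 by 0.35 (SE 0.12). Genes of near-identical cytochrome P450 and glutathione transferase families may share probes. After quantile normalization the median of the list was 0.09, and without IUCR B 0.26. IUCR B stood at 0.01 from the control mean, below IUCR A and IUCR C at 0.37 and 0.29, and control B at 0.22.

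Genes of the respiratory chain had small differences that nearly all lay on the same side. Of 32 measured, 29 were above 0 and 3 below, with 3 higher and 0 lower at an unadjusted p below 0.05, and the median was 0.11. The largest was Atp5po, a stalk subunit of ATP synthase, at 9.96, 9.91 and 9.66 in controls and 10.26, 9.98 and 10.14 in IUCR (0.28, SE 0.10, adjusted p = 0.597). Ndufs3 of complex I differed by 0.23 (SE 0.08) and Cox4i1 of complex IV by 0.16 (SE 0.06). These are bright genes, 31 of the 32 above the median level. Of all genes above that level 63.1% were above 0 and 5.76% higher at that p. The list's mean level was 9.954 to 10.237 over the 6 arrays. In the brightest decile (9.8 or above) those shares were 74.983% and 9.79%, so the count of 3 is at the background there. The list's median was 0.04 after quantile normalization and 0.17 without IUCR B. By array the list's mean was 0.18 in IUCR A, -0.02 in IUCR B and 0.13 in IUCR C, and control B reached 0.12, so the groups overlapped. Sod2, which disarms superoxide in mitochondria, was at 10.25, 10.46 and 10.22 in controls and 10.64, 10.49 and 10.60 in IUCR (0.27, SE 0.08, adjusted p = 0.595).

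In lipid and bile acid metabolism, Cyp7a1, the rate-limiting enzyme of bile acid synthesis, was at 9.77, 9.64 and 10.69 in controls and at 9.42, 9.63 and 9.22 in IUCR. IUCR B lay within 0.02 of control B, and control C stood above the rest (-0.61, SE 0.25, 95% interval -1.15 to -0.08, adjusted p = 0.649). Abcb4, which exports phosphatidylcholine into bile, was at 10.30, 10.34 and 10.39 against 10.54, 10.69 and 10.87, with no overlap (0.35, SE 0.12, adjusted p = 0.597). Slco1b2, an uptake transporter for bile acids and drugs, differed by 0.29 (SE 0.12). Of 17 genes of this group 14 were above 0, with a median of 0.15 (0.08 after quantile normalization). As a list mean IUCR B stood at -0.04, below controls A and B at 0.01 and 0.07.

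Lipoprotein genes lay slightly above control. Of 17 genes of lipoproteins and lipid uptake, 15 were above 0, 5 were higher and 0 lower without overlap, and the median was 0.11 (0.04 after quantile normalization). All 17 are above the median level, where 63.1% of genes were above 0 and 9.17% higher without overlap. Apoc2, the activator of lipoprotein lipase, was at 11.87, 12.02 and 11.83 in controls and at 12.31, 12.16 and 12.28 in IUCR (0.35, SE 0.09, adjusted p = 0.531), and Apoa2, of high-density lipoprotein, differed by 0.37 (SE 0.17). Of 18 genes of cholesterol synthesis 17 were above 0 (median 0.12), with 0 at an unadjusted p below 0.05, and control C reached 0.24 as a list mean, above all 3 IUCR arrays at 0.09 to 0.19.

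Fatty acid and triglyceride synthesis was mixed. Me1, the malic enzyme that supplies NADPH to it, was at 9.35, 10.25 and 9.92 in controls and at 9.17, 9.20 and 9.25 in IUCR (-0.63, SE 0.25, adjusted p = 0.635), while Dgat2, the last step to triglyceride, differed by 0.28 (SE 0.11) and Agpat2 by 0.21 (SE 0.09). Fasn, the fatty acid synthase, was at 0.10 and Scd, the desaturase, at -0.36. Pdk4, which spares glucose by braking pyruvate dehydrogenase, was at 9.54, 9.39 and 9.63 in controls and at 10.10, 10.48 and 9.84 in IUCR, with no overlap (0.62, SE 0.22, adjusted p = 0.597). The remaining measured genes of fatty acid oxidation and ketone bodies were near control, with 1 of 17 at an unadjusted p below 0.05 (Pdk4) and a median of 0.06, or 0.00 after quantile normalization and 0.13 without IUCR B. Above the median level, where 16 of the 17 lie, 5.76% of genes were higher and 1.5% lower at that p. Without IUCR B the median of fatty acid and triglyceride synthesis was 0.04, against 0.10 with it.

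Glucose production showed no common direction. Of 15 genes, 1 was higher and 1 lower at an unadjusted p below 0.05 and the median was 0.02 (0.09 without IUCR B). Above the median level, where 14 of the 15 lie, 5.76% of genes were higher and 1.5% lower at that p. Pygl, the liver glycogen phosphorylase, differed by 0.33 (SE 0.10) and Gys2, the liver glycogen synthase, by -0.23 (SE 0.10), each with overlap. Pck1, the enzyme that commits carbon to glucose, was at 13.31, 13.36 and 13.16 in controls and at 13.29, 13.24 and 13.52 in IUCR (0.07, SE 0.14, 95% interval -0.23 to 0.37). G6pc1, the last step of glucose release, was at 0.17 (SE 0.39), with IUCR C at 12.997 above the other 5 arrays. In insulin signalling 0 of 11 genes had an unadjusted p below 0.05, and Akt2 differed by 0.17 (SE 0.08).

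Genes of the Wnt pathway, which sets the zones of the liver lobule, lay on both sides. Of 24 measured, 3 were higher and 3 lower at an unadjusted p below 0.05 with a median of -0.01 (0.02 after quantile normalization). Over all genes those shares were 3.51% and 3.74%, and above the median level, where 18 of the 24 lie, 5.76% and 1.5%. Without overlap, 5 of the 24 were higher and 3 lower, against 5.68% and 5.49% of all genes. Fzd4, a receptor for Wnt ligands and norrin, was at 9.11, 9.16 and 9.17 in controls and at 9.39, 9.76 and 9.73 in IUCR (0.48, SE 0.10, adjusted p = 0.331). Pkdcc, a secreted kinase, was at 8.50, 8.52 and 8.55 against 8.95, 9.05 and 9.13 (0.52, SE 0.10, adjusted p = 0.320). Both groups were tight and clear of each other for these genes. The co-receptor Lrp5 differed by 0.40 (SE 0.11). The receptors Fzd6 (-0.27, SE 0.08) and Fzd2 (-0.20) and the inhibitor Nkd1 (-0.21, SE 0.08) were lower without overlap. Axin2 and Lgr5, standard targets of the pathway, were at 0.09 and 0.03.

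Among genes of the zones themselves, 3 of 13 periportal genes were higher and 0 lower at an unadjusted p below 0.05 (median 0.12), against 2 higher and 2 lower of 14 pericentral genes (median 0.09). Among all genes above the median level 5.76% were higher and 1.5% lower at that p. The periportal list's mean level was 10.806 to 11.107 over the 6 arrays. In the brightest decile (9.8 or above) 9.79% were higher and 0.482% lower. After quantile normalization the medians were 0.04 and 0.09, so the order of the zones turned. The urea cycle genes Cps1 (0.21, SE 0.10) and Otc (0.38, SE 0.15) and the protease Ctsc (0.33, SE 0.09) made up the periportal count. Slc1a2, the glutamate transporter of pericentral cells, was at 7.72, 7.86 and 7.59 in controls and at 8.52, 8.23 and 8.07 in IUCR, with no overlap (0.55, SE 0.25, adjusted p = 0.672). Dio1, which activates thyroid hormone, differed by 0.42 (SE 0.13), with overlap, and by 0.60 without IUCR B.

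The growth hormone and insulin-like growth factor axis was close to control. Igf1, its main liver product, was at 12.86, 12.90 and 13.11 in controls and at 12.90, 12.92 and 12.90 in IUCR (-0.05, SE 0.10, 95% interval -0.26 to 0.16). Above the median level, where 13 of the 14 measured genes of the axis lie, 5.76% of genes were higher and 1.5% lower at an unadjusted p below 0.05. Of the 14, 1 was higher and 0 lower at that p, and the median was -0.04. That gene was Stat5b, which carries the male pulse of growth hormone to the nucleus, at 9.28, 9.21 and 9.07 against 9.30, 9.46 and 9.73 (0.31, SE 0.10, adjusted p = 0.595). Cish, an inhibitor induced by the same signal and singled out after its values were seen, was at 9.59, 9.48 and 8.75 in controls and at 10.05, 9.97 and 7.40 in IUCR. The IUCR livers thus lay on both sides of the controls.

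Sex-biased genes differed more between the IUCR livers than between the groups. Hsd3b5, a male-biased steroid enzyme, was at 12.29, 12.21 and 11.28 in controls and at 12.41, 9.36 and 12.33 in IUCR, and Cyp3a2, also male-biased, at 12.84, 12.93 and 11.46 against 13.24, 9.99 and 12.60. The female-biased Cyp2c12 was at 9.86, 9.34 and 10.57 in controls and at 8.98, 12.01 and 9.84 in IUCR. In each of the 3 genes IUCR B was the extreme array, and control C leaned the same way. Other members did not all follow. Hao2, counted as female-biased, was at 9.41 in IUCR B, below the controls at 9.98 to 10.91. Among male-biased genes, Cyp2c13 in IUCR B was at 12.37, as in control C, and Bcl6 at 7.81 lay within the controls.

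As a list, the 8 measured male-biased genes stood at 0.52, -1.38 and 0.54 from the control mean in IUCR A, B and C, and at 0.30, 0.24 and -0.55 in the controls. The 10 female-biased genes stood at 0.03, 0.86 and -0.09, and at -0.10, -0.19 and 0.30. The median difference between groups was -0.16 for male-biased and 0.20 for female-biased genes with all arrays, and 0.48 and -0.18 without IUCR B, so the direction of both lists turned on that array. Of these 18 genes 1, Fmo1, had an unadjusted p below 0.05.

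**Figure D4:**
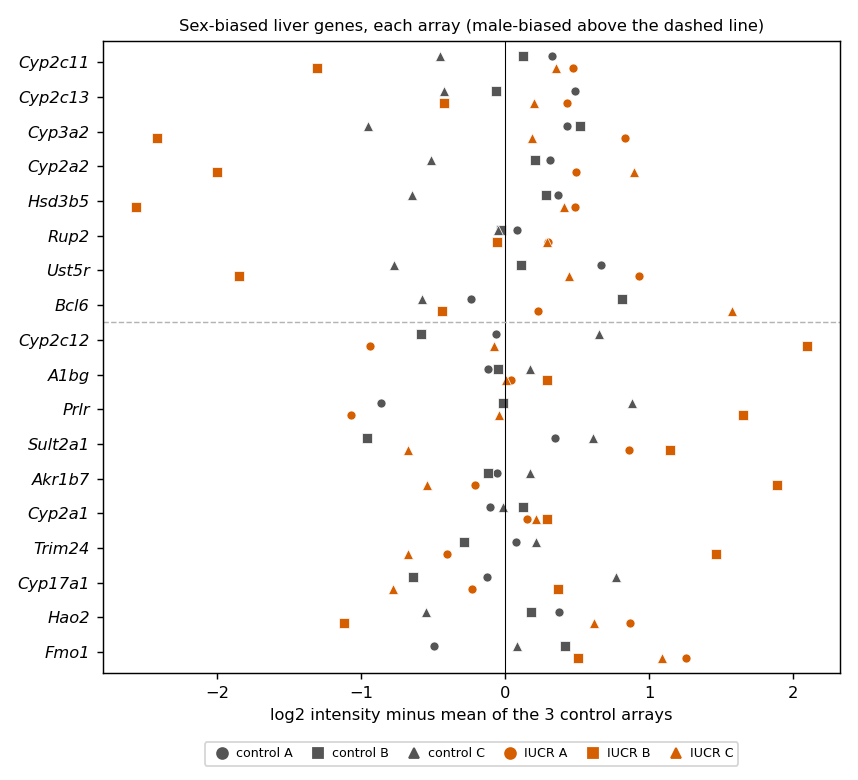
Change of each sex-biased gene on each array from the mean of the 3 controls, in log2 intensity (male-biased above the dashed line, female-biased below). IUCR B (orange squares) lies far left for Hsd3b5 and Cyp3a2 and far right for Cyp2c12, and control C (grey triangles) leans the same way by less.

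Interferon response genes lay mostly a little above control. Of 17 measured, 16 were above 0, 5 were higher and 0 lower without overlap, 1 was higher at an unadjusted p below 0.05, and the median was 0.24 (0.18 without IUCR B). Over all genes 5.68% were higher without overlap and 3.51% higher at that p, so the count of 1 is near the background. Irf1, a transcription factor of the response, was at 7.49, 7.47 and 7.58 in controls and at 7.68, 7.88 and 7.72 in IUCR (0.25, SE 0.10, adjusted p = 0.639). The antiviral genes Oas1a, at 8.50, 8.64 and 8.78 against 9.05, 8.97 and 8.90, and Mx1, at 7.10, 7.03 and 7.20 against 7.43, 7.58 and 7.34, did not overlap but had intervals that include 0. Ifit1 ranged from 5.10 to 8.67 in controls and from 5.50 to 9.88 in IUCR. Its spread within each group exceeded the difference between them. In antigen presentation, RT1-Bb, a chain of the class II complex, was at 8.63, 8.77 and 8.16 in controls and at 8.03, 8.04 and 7.63 in IUCR (-0.62, SE 0.23, adjusted p = 0.612), and the 14 genes had a median of 0.10.

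Several marker lists of blood cells and of the pancreas, mostly dim genes, lay below control, and so did 8 of 10 macrophage markers, which are all brighter genes (median -0.07). Of all genes above the median level 63.1% were above 0. The macrophage list stood at 0.25, -0.06 and -0.18 from the control mean in controls A, B and C. It stood at -0.15, 0.09 and -0.19 in IUCR A, B and C, so the groups overlapped, with control A the highest. Jchain, which joins the chains of secreted antibodies, was at 6.11, 6.07 and 6.54 in controls and at 5.61, 5.42 and 5.50 in IUCR (-0.73, SE 0.15, 95% interval -1.05 to -0.41, adjusted p = 0.331). The IUCR values lie under the lower quartile of the arrays. Over the 6 measured B and plasma cell markers, 5 were below 0 and the mean level was 6.71 to 6.86 in controls and 6.56 to 6.69 in IUCR. In such bulk samples fewer cells of a type and less RNA per cell cannot be told apart. Hdc, the histamine-making enzyme of mast cells, was at 7.524, 7.313 and 7.266 in controls and at 7.013, 7.003 and 6.614 in IUCR (-0.49, SE 0.11, adjusted p = 0.458), but the 7 mast cell markers had a median of -0.01, so Hdc differed without the others. Neutrophil markers were below 0 for 7 of 9 (mean level 6.14 to 6.24 in controls, 5.98 to 6.13 in IUCR). The 7 pancreatic acinar markers were all below 0, led by the trypsinogen Prss1 (-0.47, SE 0.22), at a mean level of 6.89 to 7.06 against 6.76 to 6.85. Dim genes in general leaned lower, and the part of that lean in these markers was not tested. Markers of macrophages, endothelium, stellate cells, bile ducts, T cells, red cells and kidney had 0 genes each at an unadjusted p below 0.05, and of 6 fat cell markers 1 was lower (Plin1, which coats lipid droplets, -0.23, SE 0.10). Without IUCR B the median was 0.29 for red cell markers and -0.13 for macrophage markers, against 0.06 and -0.07 with it.

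The amino acid response, which cells switch on when amino acids run short, lay below control. Of 9 genes measured 8 were below 0 (median -0.13), with Psat1, of serine synthesis, at 8.59, 7.69 and 8.10 in controls and 7.28, 7.71 and 7.21 in IUCR (-0.73, SE 0.32, adjusted p = 0.663), and Asns, the asparagine synthetase, at 8.33, 7.06 and 6.91 against 6.88, 7.01 and 6.46 (-0.65, SE 0.28). Both overlap, and for Asns the high value of control A set the gap (-0.20 without control A). Only 4 of the 9 lie above the median level, and of the 7253 genes below it 2385 were above 0. Of 17 cell cycle genes 13 were below 0 and 4 lower without overlap, with a median of -0.06. Ccne1, the cyclin of entry into DNA synthesis, differed by -0.37 (SE 0.12). Of the 17, 14 lie below the median level, where 594 of 7253 genes were lower without overlap and 159 higher. Over all genes 5.49% were lower without overlap. At an unadjusted p below 0.05, 1 of the 17 was lower (Ccne1), and 434 of the 7253 dimmer genes were lower and 91 higher.

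Genes of DNA methylation and of fetal growth were near control. Of 12 measured genes of DNA methylation and histone modification, 0 had an unadjusted p below 0.05 and the median difference was 0.00. Dnmt1, which maintains methylation, was at -0.04 and Dnmt3a, which sets it, at -0.02. Of 11 imprinted and fetal genes 1 was lower and 0 higher at that threshold: Mest, an imprinted gene of fetal growth, at 7.21, 7.08 and 7.28 in controls and at 6.64, 7.02 and 7.04 in IUCR (-0.29, SE 0.10, 95% interval -0.51 to -0.07, adjusted p = 0.597). The groups did not overlap. H19 was at -0.20 and Igf2 at -0.03. Over all genes 3.51% were higher and 3.74% lower at an unadjusted p below 0.05. Heat shock genes (12 measured, 10 below 0, median -0.08), the unfolded protein response (13, median -0.05), acute phase genes (15, median 0.01), inflammatory cytokines and receptors (15, median -0.01) and matrix genes (15, median 0.01) had at most 1 gene each at an unadjusted p below 0.05. After quantile normalization the medians of the acute phase and matrix lists were -0.05 and -0.03. Before that normalization, the lists of oxidative stress (16, median 0.05), mitochondrial biogenesis (11, median 0.06), iron and heme (13, median 0.09), senescence (10, median -0.01) and immediate early genes (10, median -0.01) also had at most 1, and thyroid hormone genes (9, median 0.13) had 1 in each direction. After it, the medians of oxidative stress and of iron and heme were -0.0023 and 0.006, and that of thyroid hormone genes 0.07. Without IUCR B the medians of immediate early and matrix genes were -0.15 and -0.07.

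**Figure D5:**
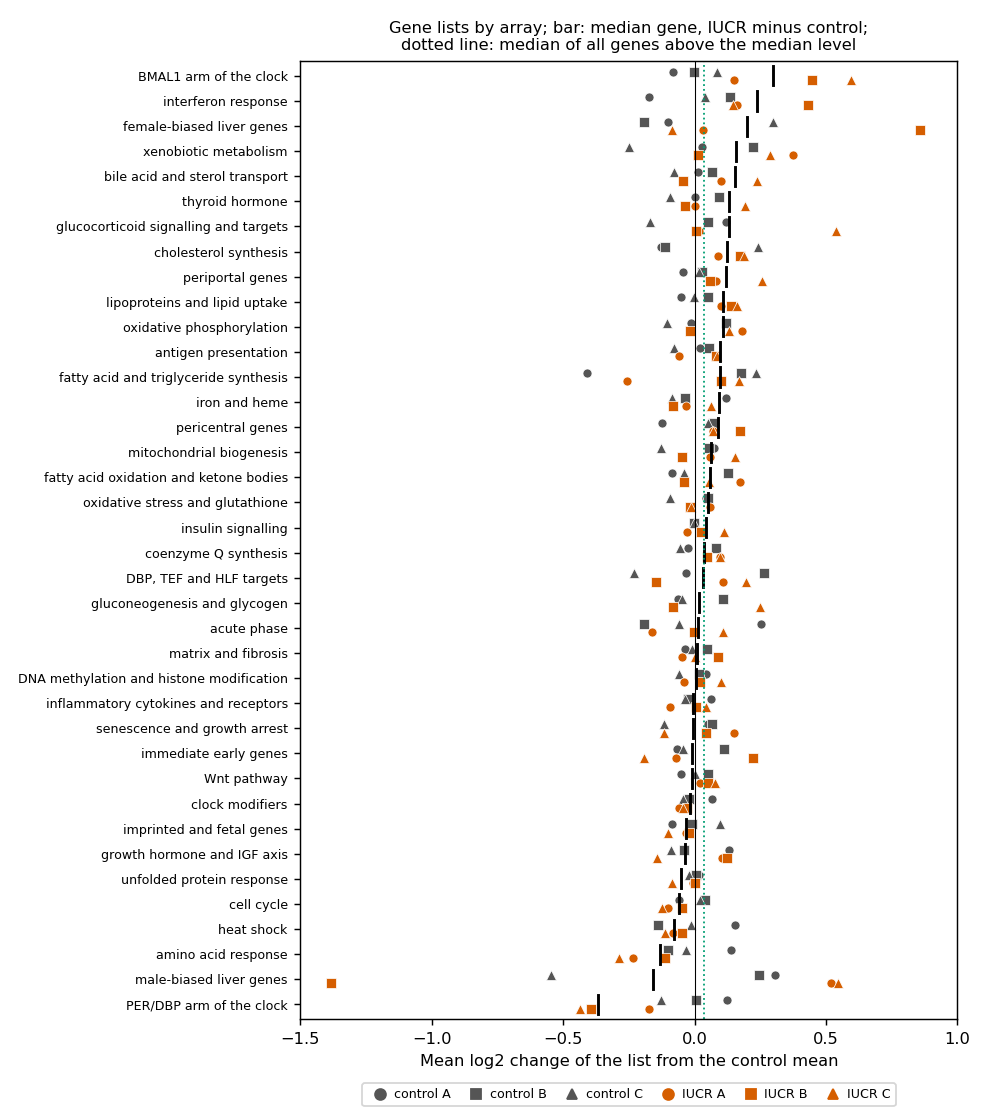
Mean change of each gene list on each array from the control mean (grey, control; orange, IUCR), in log2 intensity, with a bar at the median difference of its genes. The PER and DBP arm has the lowest median (-0.37) and the BMAL1 arm the highest (0.30), and male-biased genes in IUCR B lie at -1.38. The dotted line is the median of all genes above the median level, 0.04.

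Against IPCR, the livers restricted in the womb and also while nursing, IUCR differed in 6 of 14506 genes (0.0414%, limma adjusted p below 0.05). Both restricted groups share the same controls, so their differences from control are given side by side and the test is of IPCR minus IUCR. Cyp7a1 was at -0.61 from control in IUCR and at 1.28 in IPCR, a difference of 1.89 (SE 0.25, adjusted p = 0.0243). Apol3l1, an apolipoprotein L gene, was at 0.68 in IUCR and -0.48 in IPCR (-1.16, SE 0.18, adjusted p = 0.0448). The other 4, Cxcl14, Gstm3, Pus3 and Zfp189, were at 0.04, -0.22, -0.09 and -0.32 in IUCR and at 0.90, 0.82, 0.43 and 0.79 in IPCR. The count rests on the whole set of arrays: it was 0 with only the 9 arrays of day 450, after quantile normalization, or without IUCR C, IPCR A or IPCR C, 2 without IUCR B, and 14 without IPCR B.

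The clock pattern was not shown to be particular to IUCR. Bmal1 was at 1.02 from control in IUCR and 0.21 in IPCR (difference -0.80, SE 0.23, adjusted p = 0.422), Dbp at -0.65 and 0.10 (0.75, adjusted p = 0.388), and Cry1 at -0.29 and 0.29 (0.59, adjusted p = 0.0951), and none of the 15 clock genes passed. Other genes of the BMAL1 arm were above control in both groups: Clock at 0.28 and 0.22, Npas2 at 0.68 and 0.35 and Nfil3 at 0.30 and 0.11. The median of that arm was 0.30 in IUCR and 0.22 in IPCR, and that of the PER and DBP arm -0.37 and 0.11. Zbtb16 was at 1.50 and -0.02 (-1.52, SE 0.34, adjusted p = 0.237). Noct, a deadenylase with a daily rhythm, was at -0.14 and 1.64 (1.77, adjusted p = 0.127). Coq8a (0.63 and 0.48), Ptprt (-0.72 and -0.69), Abcg2 (-0.95 and -0.89) and Me1 (-0.63 and -0.73) lay on the same side of control in both groups, and the adjusted p of IPCR minus IUCR was between 0.79 and 0.98 for each.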

How the data were processed

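Liver RNA was measured on Affymetrix Rat Gene arrays. The deposited values are log2 intensities, normalized by the authors with RMA in Affymetrix Expression Console per the submitters' processing notes, with no version stated in the sources used here. They were used as deposited. RMA forces arrays to like distributions and compresses large ratios. No scan dates, raw intensities or calls over background were used, so batches were not tested.

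Of 29215 probe sets, 15310 carry 1 gene symbol in the probe annotation supplied, 323 several and 13582 none. Genes with more than 1 probe set (527) took the brightest on average, leaving 14506 genes, of which 14481 are in the RefSeq table (GRCr8). A model of 5 group means on all 15 arrays was fitted by limma (version 3.58.1, under R 4.3.3; lmFit and eBayes, 10 residual degrees of freedom), with Benjamini-Hochberg adjustment over all genes and a threshold of 0.05. The code was tested on simulated data. The number of arrays limits the precision.

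Named genes were the 12 smallest p values and the 10 largest differences without overlap in each direction among genes above the median level, the clock and sex-biased genes, up to 5 members of each of the other lists (at an unadjusted p below 0.05, otherwise the 2 with the smallest p) and Ptprt, Coq8a, Pnkd, Jchain and Hdc. Other list members are given as single values. The members, lists and rule were chosen with earlier results of these data known. Lists were described by counts and medians, with no set test. The alternatives were other arrays in the fit, centred arrays, a block for the replicate letter, quantile normalization, each array left out, the mean of probe sets, brighter genes, adjusted p below 0.1, trend with robust moderation and all probe sets. The interquartile range as a covariate, and quantile normalization of brighter genes, were added after seeing the data.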

Additional observations from a re-analysis of the deposited data

Results flagged for a closer look

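The effects of the 2 restrictions at day 450 differed by limma's test of IPCR minus IUCR in 6 genes. The log2 differences were -1.16 for Apol3l1, 0.86 for Cxcl14, a chemokine, 1.89 for Cyp7a1, 1.04 for Gstm3, a glutathione transferase, 0.52 for Pus3, a pseudouridine synthase of transfer RNA, and 1.11 for Zfp189. Adjusted p values were 0.0243 to 0.0472, and 1084 genes had an unadjusted p below 0.05. For Cyp7a1 each IUCR liver was below and for Apol3l1 above every control.

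Among probe sets with no gene in the annotation used, 2 passed in IUCR against control when all 29215 probe sets were tested. Probe set 10701210 was at 5.44, 5.76 and 5.58 in controls and at 6.44, 6.56 and 6.40 in IUCR (0.88, SE 0.10, limma adjusted p = 0.00668). Probe set 10701577 was at 5.97, 5.83 and 5.74 against 6.91, 6.65 and 6.87 (0.97, SE 0.10, adjusted p = 0.00421). The control values of both lie under the lower quartile of the arrays.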

How the results depend on the processing

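For IUCR against control, the count of genes passing was 0 under each alternative run except with all probe sets (2, both unnamed) and without control B (2, Coq8a and Ptprt), so leaving out each array gave 0 to 2. At an unadjusted p below 0.05 the 509 higher and 543 lower genes became 1181 and 1198 with all probe sets, 289 and 263 with quantile normalization of brighter genes, 711 and 383 with centred arrays, and 120 lower with brighter genes only. Leaving out each array gave 306 to 808 higher and 371 to 773 lower. Genes without overlap, 824 and 797, became 435 and 428 with quantile normalization of brighter genes, and 203 lower with brighter genes only. The replicate letters do not pair the arrays (same-letter correlations 0.196, -0.174 and -0.135). With the letter as a block the count was 0, with 508 higher and 542 lower. For IPCR against IUCR the 6 genes became 0 with 9 arrays, 3 with centred arrays, 0 after quantile normalization, 3 with the replicate block, and 0 to 14 with each array left out.

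Of 2460 log2 differences of the 158 named genes under an alternative, 2430 kept their sign, and the 30 that turned are of 19 genes, many of them sex-biased. With the interquartile range as a covariate Cyp17a1 was at 0.14, Cyp2c13 at -0.16, Hao2 at -0.29 and Tpsab1 at 0.0555. With each array left out, the ranges were -0.38 to 0.84 for Akr1b7, -0.28 to 0.0242 for Aqp2, -0.10 to 0.90 for Bcl6, -0.0254 to 0.24 for Cldn7, -0.54 to 0.17 for Cyp17a1, -0.76 to 0.69 for Cyp2a2, -0.48 to 0.41 for Cyp2c11, -0.51 to 1.01 for Cyp2c12, -0.14 to 0.31 for Cyp2c13, -1.12 to 0.51 for Cyp3a2, -0.25 to 0.74 for Hao2, -1.08 to 0.45 for Hsd3b5, -0.26 to 0.0082 for Noct, -0.56 to 0.81 for Prlr, -0.0343 to 0.25 for Slc4a1, -0.0367 to 1.00 for Sult2a1, -0.54 to 0.53 for Trim24 and -0.70 to 0.69 for Ust5r. Of 557 list medians, 52 moved by over 1 SD. The cause was not tested.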
